A study of Mus musculus with 47 samples.

Results

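The 8 transcription factors described here (Lhx2, Emx1, Neurod2, Neurod6, Tbr1, Fezf2, Bcl11b and Cux2) are factors of the cortical projection neuron, the glutamatergic cell that sends the long axons of the cerebral cortex. They were chosen by name as factors of this cell type, with earlier results of these data known, and each was found in 1 row of the male and 1 row of the female count table, so all 8 of 8 were measured among the 55416 gene identifiers of each table. The libraries are bulk brain RNA of male and female 3xTg mice, a model of Alzheimer's disease (AD) whose alleles include mutant human APP and MAPT transgenes, driven by a Thy1 promoter that is active in neurons. Every group, Control included, carries these alleles. Mice were fed an amino acid defined Control diet, or that diet restricted in isoleucine (IleR), leucine (LeuR) or valine (ValR), for 9 months from 6 months of age, so that brains came from mice of 15 months. The male libraries were 4 Control, 3 IleR, 3 LeuR and 4 ValR, those of females 6 Control, 5 IleR, 6 LeuR and 6 ValR, and 10 further male libraries named in the labels are not analysed here. The study's methods say that outlying samples were taken out after principal component analysis, so the male groups may be a filtered subset of those labelled. Libraries are called by sex, diet and the number in their label, such as LeuR 21.

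In the developing cortex, Lhx2 and Emx1 act early, in the progenitors that are set aside as cortex. NeuroD factors then switch on as neurons leave division. Tbr1, Fezf2 and Bcl11b divide the deep layers between neurons that project to the thalamus and those that project to the brainstem and spinal cord, and Cux2 marks the upper layers that connect cortical areas with each other. All of these factors keep some expression in adult neurons, several of them also outside the cortex: Neurod2 in granule cells of the cerebellum, and Bcl11b in the medium spiny neurons of the striatum and in T cells.

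In the GENCODE annotation of GRCm38, the build of the counts, Lhx2 (ENSMUSG00000000247) lies on chr2:38339281-38369733 on the plus strand, and Tbr1 (ENSMUSG00000035033) on chr2:61802930-61814114, also on the plus strand. Emx1 (ENSMUSG00000033726) lies on the plus strand at chr6:85187438-85204462, and Neurod6 (ENSMUSG00000037984) on the minus strand of the same chromosome at chr6:55677822-55681263. The other minus strand genes are Neurod2 (ENSMUSG00000038255, chr11:98325415-98329648), Fezf2 (ENSMUSG00000021743, chr14:12342094-12348189), Bcl11b (ENSMUSG00000048251, chr12:107910403-108003602) and Cux2 (ENSMUSG00000042589, chr5:121856366-122050102). Antisense genes overlap Lhx2 and Cux2, and none of these exceeded 0.603 CPM in any library.

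Neurod2 and Neurod6 are near relatives of the same basic helix-loop-helix family and their levels parted in male libraries, so, chosen after their values were seen, the 250 bases before their RefSeq starts (GRCm38.p6) are printed 5′ to 3′ on the strand of the gene. Capitals mark E-boxes, the CANNTG sites that helix-loop-helix factors bind. The Neurod2 window, chr11:98329646-98329895, is intergenic but for its last 3 bases, which GENCODE places in the first exon, and the Neurod6 window, chr6:55681264-55681513, lies wholly upstream of the annotated gene.
Neurod2: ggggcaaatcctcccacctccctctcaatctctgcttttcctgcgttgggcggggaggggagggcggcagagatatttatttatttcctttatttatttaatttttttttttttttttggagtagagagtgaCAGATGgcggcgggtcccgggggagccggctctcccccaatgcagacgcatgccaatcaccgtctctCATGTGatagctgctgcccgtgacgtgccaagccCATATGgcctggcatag
Neurod6: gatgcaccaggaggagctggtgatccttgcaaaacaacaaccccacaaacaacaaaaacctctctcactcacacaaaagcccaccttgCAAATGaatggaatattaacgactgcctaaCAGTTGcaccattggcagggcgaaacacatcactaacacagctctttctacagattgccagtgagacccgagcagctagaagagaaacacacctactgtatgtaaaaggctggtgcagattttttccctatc
The Neurod2 window held 3 E-boxes, of which 1 is CAGATG, the form that NeuroD factors prefer, and the Neurod6 window held 2, neither of them CAGATG. On either strand, 66.2% of 32851 mouse promoter windows of this length held CANNTG and 14.4% held CAGATG, which is an instance of CANNTG. Neither window held the T-box letters AGGTGTGA (1.12% of windows) or the homeodomain core TAATTA (4.84% of windows).

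The deposited values are expected counts per gene and library, with totals of 12682687 to 25722333 in males (median 16001013) and 10672599 to 21370973 in females (median 15979541). Levels are given as CPM, the counts of a gene scaled to the same library total after TMM normalization, and fold changes as log2 values from edgeR's quasi-likelihood test with their standard error (SE). A change is called where the p-value, adjusted by the Benjamini-Hochberg method over all genes tested in that sex (22197 in males, 20344 in females), is under 0.05. Pan-neuronal markers such as Snap25 and oligodendrocyte markers such as Mbp were high in every library, as in brain tissue. The study gives its group sizes in mice, while the labels do not tie libraries to mice, and p-values measure the spread between these libraries. Intervals on counts cover counting error only.

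Male libraries differed in the levels of brain region markers. The summed level of 9 cerebellar markers, led in Control by Cbln1 (9.88 CPM), ran from 20.9 to 67.6 CPM in Control-fed males, from 1119 to 3057 CPM in IleR-fed, from 132 to 1118 CPM in LeuR-fed and from 1170 to 4026 CPM in ValR-fed males. The 10 brainstem and spinal cord markers, led by Glra1 (1.76 CPM), summed to 0.726 to 9.74 CPM in Control-fed males, with Hoxa5, Hoxc4 and Lbx1 among those at 0 counts in all 4 libraries, against 73.5 to 266 CPM in IleR-fed, 3.10 to 619 CPM in LeuR-fed and 123 to 608 CPM in ValR-fed males. Of the cerebellar markers, the IleR, LeuR and ValR groups had 8, 7 and 8 above Control past the threshold, and of the brainstem markers 6, 8 and 8. Among all genes, 6.63%, 3.81% and 11.1% were called higher. These values differ between the diet groups in males, although the brainstem sum of LeuR 21 (3.10 CPM) lay within the Control range. They stand beside every male result that follows. In bulk RNA, fewer cells of a type and less RNA per cell cannot be told apart.

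**Figure D1:**
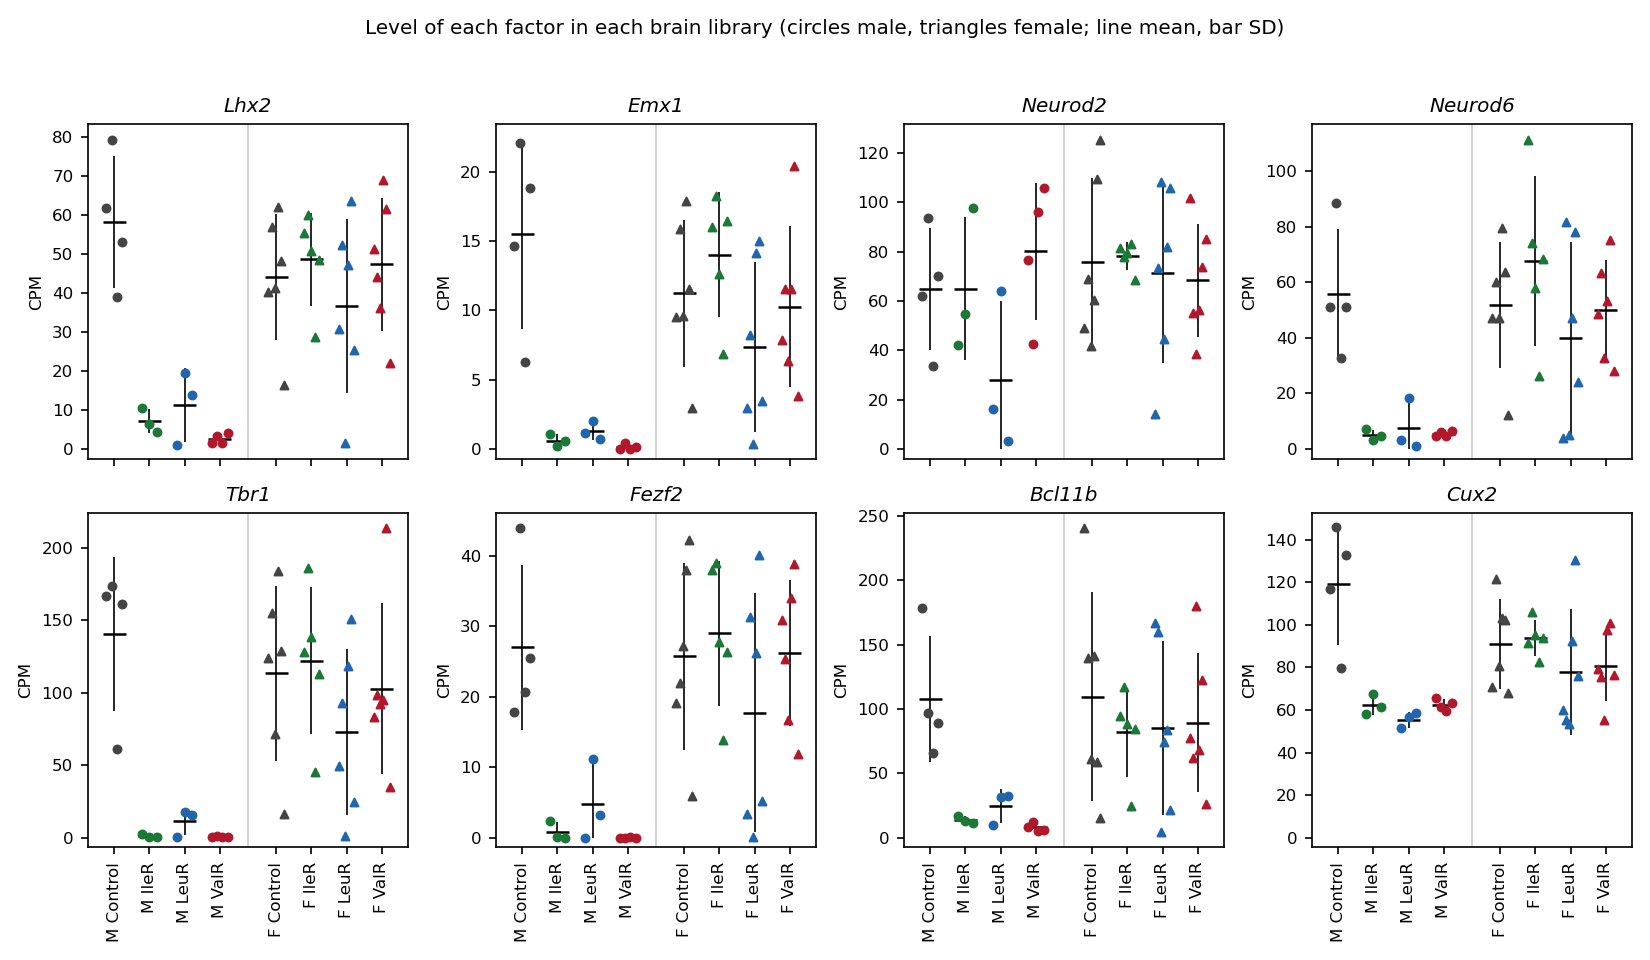
CPM of each factor (y axis) in each of the 37 libraries, grouped by sex and diet (x axis); points are libraries, horizontal lines group means and vertical lines 1 SD on either side, cut at 0. Restricted males lie below every Control-fed male in 7 panels, while Neurod2 and the female groups overlap.

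To see how the cortical factors stood on each restricted diet, each was compared with Control within a sex. In males, 7 of the 8 factors fell on IleR and on ValR and 6 fell on LeuR, and none rose. Of all genes, 15.3% were called on IleR (8.68% lower), 10.1% on LeuR (6.33% lower) and 23.5% on ValR (12.4% lower). The median log2 fold change over the 8 members was −3.27 (IleR), −2.45 (LeuR) and −4.13 (ValR), where the median over all genes tested was 0.04, 0.05 and 0.03. For 7 members, Neurod2 apart, every restricted library lay below every Control library, in each of the 3 diets. The same was true of 14.5% of all genes (IleR), 9.48% (LeuR) and 13.6% (ValR). The 3 diets were compared with the same 4 Control libraries, so their results are not independent of each other. Leaving out 1 library at a time moved the number of members that fell to between 5 and 7 for IleR and between 4 and 7 for LeuR, and left it at 7 for ValR. The 6 calls on LeuR were also lost with only Control and LeuR libraries in the fit, at adjusted p-values of 0.0721 to 0.142 (edgeR). The share of all genes called in that smaller fit was not computed.

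Lhx2, a LIM homeodomain factor of cortical progenitors, lay at 62.0, 79.4, 39.0 and 53.2 CPM in the Control-fed males 1, 3, 4 and 5. Its level was 10.6, 6.37 and 4.44 CPM in IleR 13, 14 and 17, 0.94, 19.4 and 13.8 CPM in LeuR 19, 20 and 21, and 1.44, 3.30, 1.59 and 4.01 CPM in ValR 7, 9, 10 and 12. No restricted library reached the lowest Control library, and LeuR 20 came nearest to it. Lhx2 fell by 3.04 on the log2 scale for IleR (SE 0.69), by 2.38 for LeuR (SE 0.67) and by 4.49 for ValR (SE 0.68), with adjusted p-values of 0.01, 0.0392 and 0.00049 in edgeR's quasi-likelihood test. Without IleR 14 the adjusted p-value of Lhx2 for IleR was 0.0521 and without IleR 17 it was 0.0532. For LeuR it rose above the threshold without any of Control 1, 3 or 5, ValR 7 or 10, IleR 14 or LeuR 21, to between 0.0506 and 0.103.

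Emx1, the homeodomain factor whose expression defines the dorsal forebrain, was the member with the lowest level in Control, at 14.6, 22.1, 6.30 and 18.8 CPM in the male libraries. It lay at 1.06, 0.188 and 0.592 CPM in the IleR libraries, at 1.12, 2.00 and 0.734 CPM in the LeuR libraries and at 0, 0.404, 0 and 0.127 CPM in the ValR libraries. The 2 ValR libraries at 0 (ValR 7 and ValR 10) held no count of Emx1, and the other 2 held 6 and 2 counts. The mean of the restricted groups was 3.96% (IleR), 8.30% (LeuR) and 0.860% (ValR) of the Control mean. The log2 fold change of Emx1 was −4.71 on IleR (SE 0.73), −3.61 on LeuR (SE 0.68) and −6.81 on ValR (SE 0.78), all called, with adjusted p-values of 0.00153, 0.00811 and 0.000131 (edgeR).

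Neurod2, which drives late differentiation and synapse formation of excitatory neurons, was the exception. The 4 Control-fed males held 62.2, 93.5, 33.6 and 70.2 CPM, the IleR libraries 42.3, 54.8 and 97.5 CPM and the ValR libraries 76.4, 42.5, 95.9 and 106 CPM. The LeuR libraries spread most, at 16.2, 64.1 and 3.22 CPM, and LeuR 21 was the lowest male library by a wide margin. The groups overlapped on every diet. The log2 fold change was −0.0012 for IleR (95% interval −1.41 to 1.41), −1.24 for LeuR (−2.71 to 0.24) and 0.30 for ValR (−1.0 to 1.61), with adjusted p-values of 1.00, 0.268 and 0.776 in edgeR. Without LeuR 20, the LeuR library with the highest Neurod2, the log2 fold change for LeuR was −2.72 with an adjusted p-value of 0.0278, and without LeuR 21 it was −0.68.

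Neurod6, its relative, which is found in differentiated cortical and hippocampal pyramidal neurons, did not share this pattern. It lay at 51.1, 88.5, 32.8 and 50.9 CPM in Control-fed males, at 7.14, 3.13 and 4.62 CPM on IleR and at 4.82, 6.07, 4.54 and 6.37 CPM on ValR. On LeuR it lay at 3.18, 18.4 and 1.13 CPM, with LeuR 20 again the highest and LeuR 21 again the lowest. Neurod6 fell on every diet, with log2 fold changes of −3.51 (IleR, SE 0.70), −2.93 (LeuR, SE 0.68) and −3.36 (ValR, SE 0.62), with adjusted p-values of 0.00531, 0.0192 and 0.0018 (edgeR). For LeuR the adjusted p-value was 0.0609 without Control 3 and 0.0863 without LeuR 19, and the log2 fold change was −4.67 without LeuR 20. The ratio of Neurod2 to Neurod6 counts within a library shows the parting of the pair without any scaling between libraries. It ran from 1.03 to 1.38 in Control-fed males. In restricted males it ran from 5.92 to 21.1 on IleR, from 2.85 to 5.11 on LeuR and from 7.01 to 21.1 on ValR. These did not overlap with male Control. In females it ran from 0.762 to 10.1 on Control, 0.733 to 3.15 on IleR, 0.902 to 21.3 on LeuR and 0.872 to 3.02 on ValR. The highest female values were those of LeuR 45 and Control 30, so high ratios were not confined to restricted males. A ratio shows that the pair changed unequally, not which of them changed.

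Tbr1, the T-box factor of corticothalamic neurons in layer VI, stood among the highest members per length in Control-fed males. It lay at 167, 173 and 161 CPM in Control 1, 3 and 5, and at 61.5 CPM in Control 4. On IleR it lay at 2.36, 0.753 and 0.592 CPM, and on ValR at 0.360, 0.944, 0.708 and 0.510 CPM, which is 0.878% and 0.448% of the Control mean. On LeuR the libraries parted, at 0.537 CPM in LeuR 19 but at 17.8 and 15.4 CPM in LeuR 20 and LeuR 21, the highest values of any restricted male. Even these lay below Control 4. Tbr1 fell by 6.88 (SE 0.93) for IleR, by 3.67 (SE 0.75) for LeuR and by 7.78 (SE 0.89) for ValR on the log2 scale, with adjusted p-values of 0.000986, 0.0116 and 0.000131 in edgeR's quasi-likelihood test.

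Fezf2, the zinc finger factor that directs neurons of layer V to the brainstem and spinal cord, reached the lowest levels of all members. Control-fed males held 17.8, 43.9, 20.8 and 25.5 CPM. The ValR libraries together held 2 counts of Fezf2, both in ValR 10, against 1787 in the Control libraries, a ratio of Control to ValR of 841 (95% exact interval 233 to 6952, counting error only). IleR 17 and LeuR 19 also held 0 counts, IleR 14 held 1 count (0.0377 CPM), IleR 13 held 2.42 CPM, and LeuR 20 and 21 held 11.2 and 3.27 CPM. A count of 0 in these libraries allows up to 3 counts. Fezf2 fell for IleR by 5.15 on the log2 scale (SE 1.33, adjusted p = 0.0195, edgeR) and for ValR (adjusted p = 0.00153, edgeR), and the fitted fold of a group so near 0 depends on the prior count. For LeuR the log2 fold change was −2.52 (SE 1.11, adjusted p = 0.163, edgeR), although the LeuR libraries did not overlap with Control, and limma voom gave −5.27 with an adjusted p-value of 0.0272. Without LeuR 20 the value of edgeR was −4.11. Without IleR 13, the one IleR library with more than 1 count, the log2 fold change for IleR was −9.82. The call for IleR was lost without Control 3, IleR 14 or IleR 17, with adjusted p-values of 0.0531, 0.0804 and 0.0734.

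Bcl11b, the zinc finger factor that acts downstream of Fezf2 in corticospinal neurons, lay at 178, 97.2, 65.6 and 89.0 CPM in Control-fed males. It lay at 17.1, 12.7 and 11.3 CPM on IleR, at 9.49, 31.8 and 32.5 CPM on LeuR and at 8.42, 12.2, 4.84 and 6.24 CPM on ValR. LeuR 20 and 21 were again the highest restricted libraries, and every restricted library lay below the lowest Control library. Bcl11b fell by 2.98 (SE 0.47) for IleR, by 2.13 (SE 0.45) for LeuR and by 3.77 (SE 0.44) for ValR on the log2 scale, with adjusted p-values of 0.00154, 0.0124 and 0.000132 (edgeR). In the striatum list, led by Pde10a, whose medium spiny neurons also use Bcl11b, 5 of 10 genes were lower on IleR, 5 on ValR and 0 on LeuR. T cell markers, led by Lck, summed to at most 3.27 CPM in any male library, and none of the 4 that could be tested was called on any diet.

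Cux2, the homeodomain factor of layers II to IV, changed least among the members that fell and had the narrowest spread. Control-fed males held 117, 146, 80.0 and 133 CPM. All 10 restricted males lay between 51.3 and 67.6 CPM, with means of 62.3 ± 4.78 (SD, n = 3) on IleR, 55.5 ± 3.73 (SD, n = 3) on LeuR and 62.5 ± 2.52 (SD, n = 4) on ValR, where the Control mean was 119 ± 28.6 (SD, n = 4). Cux2 fell by 0.93 (SE 0.16) for IleR, by 1.10 (SE 0.16) for LeuR and by 0.93 (SE 0.14) for ValR on the log2 scale, with adjusted p-values of 0.00206, 0.00359 and 0.00056 (edgeR). The means of the restricted groups were 46.6% to 52.5% of the Control mean for Cux2 and 7.37% to 22.9% for Bcl11b, and single restricted libraries ran from 43.1% to 56.8% for Cux2 and from 4.50% to 30.2% for Bcl11b. Within a library the ratio of Cux2 to Bcl11b counts ran from 0.655 to 1.5 in Control-fed males. In restricted males it ran from 3.41 to 5.44 on IleR, from 1.78 to 5.41 on LeuR and from 5.05 to 12.3 on ValR. In females it ran from 0.294 to 4.5 on Control, 0.902 to 3.37 on IleR, 0.345 to 12.0 on LeuR and 0.307 to 2.91 on ValR. The highest female values were again those of LeuR 45 and Control 30.

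**Figure D2:**
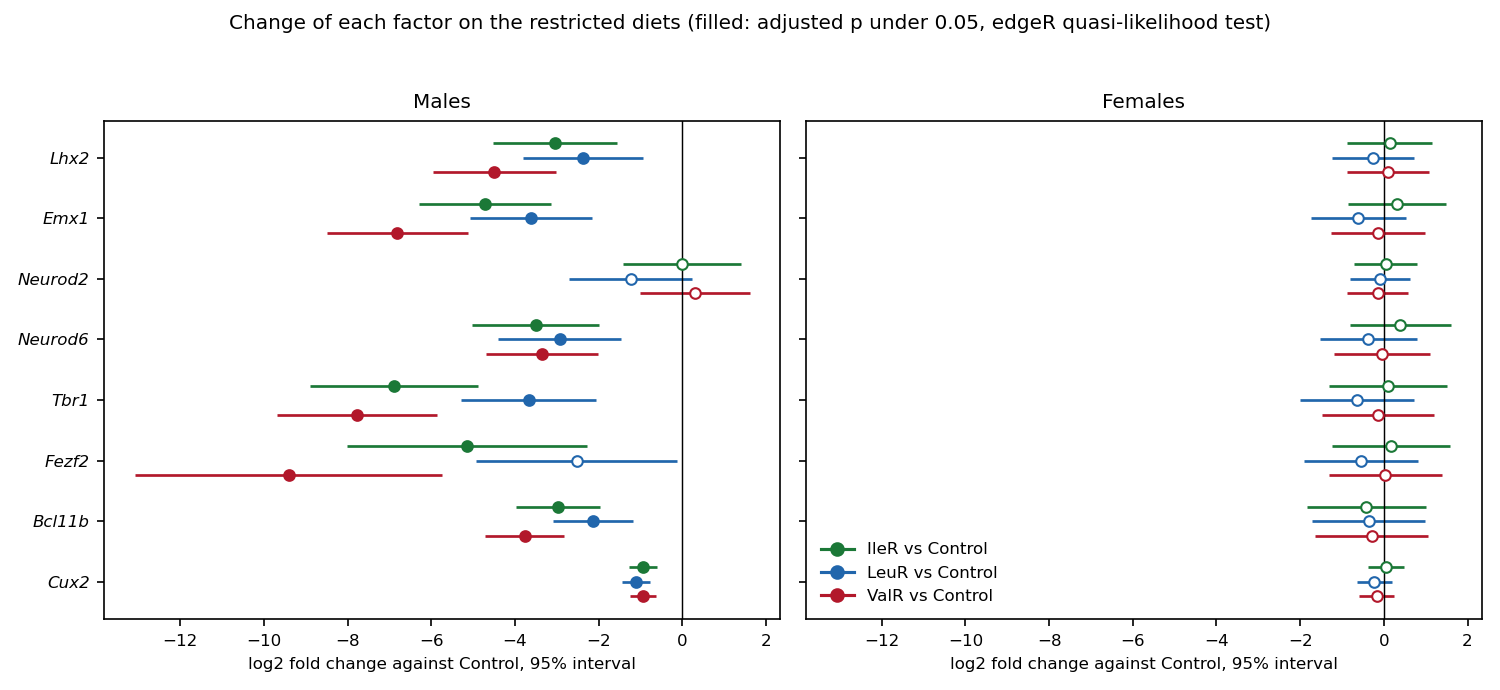
Log2 fold change of each factor against Control (x axis) for the 3 restricted diets, males on the left and females on the right; lines are 95% intervals and filled points have an adjusted p under 0.05 in edgeR's quasi-likelihood test. In males 20 of 24 points are filled, from −0.93 for Cux2 to −9.41 for Fezf2, and no female point is filled.

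The restricted diets were then compared with each other in males. Between ValR and LeuR, Tbr1 was the only member called, lower in ValR by 4.10 on the log2 scale (SE 0.89, adjusted p = 0.0481, edgeR's quasi-likelihood test), where 2.75% of all genes were called. The Tbr1 libraries of the 2 diets overlapped, since LeuR 19 lay among the ValR libraries. The call rests on several libraries: leaving out Control 1, 3 or 5, ValR 7, 10 or 12, IleR 14 or LeuR 21 raised the adjusted p-value to between 0.0588 and 0.152. In the same comparison the log2 difference, ValR minus LeuR, was −3.19 for Emx1 (adjusted p = 0.0567, edgeR), −1.63 for Bcl11b (0.0567) and −2.11 for Lhx2 (0.0889). Fezf2 had an adjusted p-value of 0.0572 (edgeR). None of these was past the threshold in edgeR, whereas DESeq2 called 5 members and limma voom 0. The shares of all genes called by DESeq2 and by limma voom were not computed. ValR and IleR did not differ past the threshold in any member, nor did IleR and LeuR, and 0% of all genes were called by edgeR in either comparison. At an unadjusted p-value under 0.05 (edgeR), 1 member differed in each, Emx1 between ValR and IleR and Tbr1 between IleR and LeuR. Of all 22197 genes, 628 between ValR and IleR and 2512 between IleR and LeuR had such a p-value. Limma voom and DESeq2 called 0 members in either comparison. The 95% interval of the Cux2 difference was narrow, from −0.33 to 0.33 on the log2 scale between ValR and IleR, while that of Tbr1 ran from −3.25 to 1.46.

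In females, 0 of the 8 factors were called on any diet by edgeR, limma voom or DESeq2, and 0 reached an unadjusted p-value under 0.05. The background was the same, with 0% of all genes called by edgeR on each diet. Before adjustment, 577 genes (IleR), 820 genes (LeuR) and 777 genes (ValR) had a p-value under 0.05. The log2 fold changes of the members ran from −0.42 for Bcl11b to 0.39 for Neurod6 on IleR, from −0.64 for Tbr1 to −0.09 for Neurod2 on LeuR, and from −0.29 for Bcl11b to 0.10 for Lhx2 on ValR. All 8 members lay below 0 on LeuR, with adjusted p-values of 0.968 to 0.982 (edgeR). The intervals set what these libraries could not show: for Tbr1 they ran from −1.31 to 1.52 on IleR, from −1.99 to 0.72 on LeuR and from −1.49 to 1.21 on ValR, and for Cux2 from −0.39 to 0.47, from −0.63 to 0.18 and from −0.58 to 0.24.

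The female groups overlapped for every member. Tbr1 ran from 16.4 CPM (Control 30) to 184 CPM (Control 28) in Control-fed females with a median of 126 CPM, and from 0.989 CPM (LeuR 45) to 151 CPM with a median of 71.2 CPM on LeuR. The 5 IleR libraries held 128, 186, 139, 45.3 and 113 CPM, and ValR ran from 34.7 to 213 CPM with a median of 93.8 CPM. LeuR 45 was the lowest female library for Lhx2 (1.42 CPM), Emx1 (0.371 CPM), Tbr1, Fezf2 (0.0618 CPM, 1 count), Bcl11b (4.45 CPM) and Cux2 (53.3 CPM), and yet it held 108 CPM of Neurod2. Its Tbr1 and Fezf2 levels lay within the range of the restricted males, and its Bcl11b level lay near the lowest of them, ValR 10 (4.84 CPM). CPM was scaled within each sex apart, so close values of a male and a female library cannot be ordered. LeuR 43 showed another pattern, with the lowest Neurod2 (14.3 CPM) and Neurod6 (3.93 CPM) of all females beside 49.3 CPM of Tbr1 and 167 CPM of Bcl11b.

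**Figure D3:**
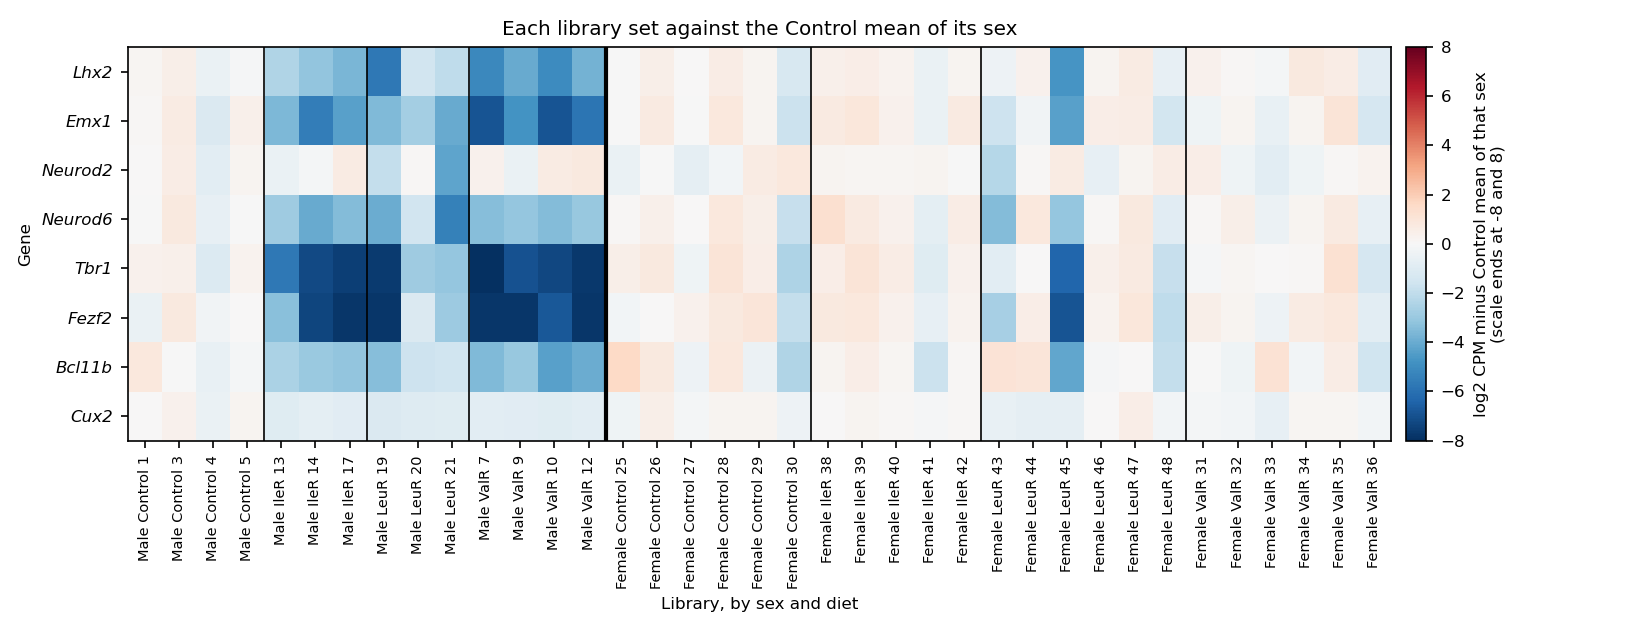
Log2 CPM of each factor (rows) in each library (columns) minus the Control mean of the same sex; blue is lower and red higher, on a scale that ends at −8 and 8. Restricted males are blue in every row but Neurod2, and among females LeuR 45 and, less so, Control 30 and LeuR 48 are blue in the same rows.

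In 8 female libraries, 2 of each diet, Gabra6, the granule cell GABA-A receptor subunit (singled out after its values were seen), lay at 78.2 to 381 CPM. Those 8 libraries held 0.989 to 139 CPM of Tbr1 (median 40.0), 4.45 to 88.2 CPM of Bcl11b (median 25.4) and 1.42 to 51.2 CPM of Lhx2 (median 27.1). The other 15 females held 49.3 to 213 CPM of Tbr1 (median 118), 61.3 to 240 CPM of Bcl11b (median 117) and 30.7 to 69.0 CPM of Lhx2 (median 52.4). Neurod2 went the other way, at 79.5 to 125 CPM in the 8 libraries (median 104) and 14.3 to 81.8 CPM in the other 15 (median 60.5). The 2 sets overlapped for all 8 members. Fezf2 ran from 0.0618 to 42.3 CPM in the 8 libraries (median 12.9) and from 3.41 to 40.2 CPM in the 15 (median 27.2), Neurod6 had medians of 27.2 and 63.1 CPM, Emx1 of 5.34 and 14.1 CPM, and Cux2 of 77.9 and 92.3 CPM. Without the 8 libraries, an alternative chosen after seeing the data, 0 members were called in females on any diet.

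A hindbrain score, the mean log2 CPM of the 19 cerebellar and brainstem markers, was taken for each library. It ran from −1.47 to −0.12 in Control-fed males, from 3.88 to 4.97 on IleR and from 4.58 to 5.50 on ValR, so that score and diet could not be told apart for these diets. On LeuR it was 4.54 and 4.51 in LeuR 19 and 20 but −0.58 in LeuR 21, and females ran from −1.42 to 5.05 over all diets. With the score as a covariate, 0 members were called in males on any diet by edgeR, with adjusted p-values from 0.155 for Cux2 on LeuR upward. The share of all genes called with the score was not computed, so these 0 calls do not set the members apart from other genes. The fitted log2 fold changes of all 8 members against Control were below 0 in that fit, Neurod2 on ValR included (−2.86), and for Tbr1 they were −5.61 (IleR), −2.80 (LeuR) and −6.30 (ValR). LeuR 21, whose brainstem markers summed to 3.10 CPM and whose cerebellar markers summed to 132 CPM, the fewest of the restricted males, lay below every Control-fed male for all 8 factors, Neurod2 included. Its thalamic markers summed to 423 CPM, against 254 and 171 CPM in LeuR 19 and 20, and its Tcf7l2 lay at 64.1 CPM against 8.10 and 7.38 CPM. Control 4 had the highest score of the Control-fed males (−0.12) and their lowest Tbr1, Lhx2, Emx1, Neurod2, Neurod6, Bcl11b and Cux2. It also had their highest thalamic markers, at a sum of 398 CPM against 56.0, 93.4 and 189 CPM in Control 1, 3 and 5, with Tcf7l2, a factor of thalamic neurons, at 104 CPM against 4.49, 10.4 and 20.5 CPM. The part of the thalamic markers in the levels of LeuR 21 and Control 4 was not tested.

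**Figure D4:**
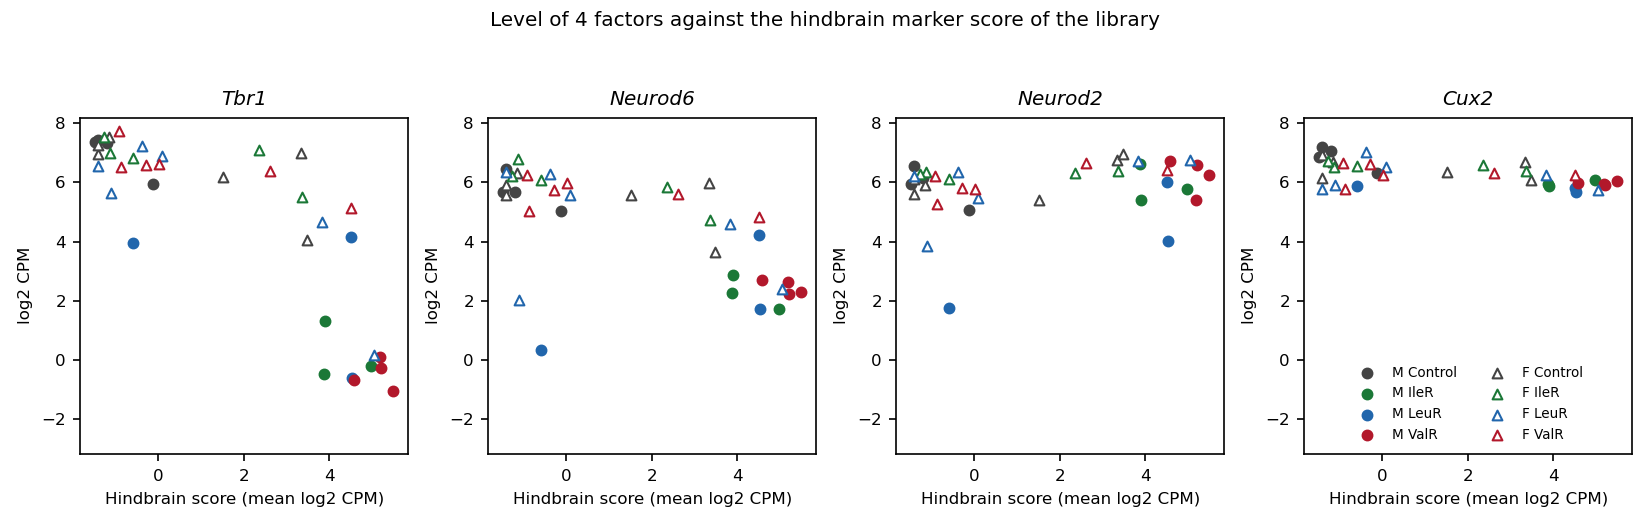
Log2 CPM of Tbr1, Neurod6, Neurod2 and Cux2 (y axis) against the hindbrain score of the library, the mean log2 CPM of 19 cerebellar and brainstem markers (x axis); filled circles are males and open triangles females, coloured by diet. Control-fed males lie at scores under 0 and IleR- and ValR-fed males at 3.88 and above, with no overlap, and the male at low score and low Neurod2 is LeuR 21.

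Whether a diet acted differently on males and females was tested as an interaction in 1 model of all 37 libraries. For ValR, 6 of 8 members were called, all with a lower value in males, where 4.25% of all genes were called. The difference of log2 fold changes, males minus females, was −4.6 for Lhx2, −6.67 for Emx1, −3.32 for Neurod6, −7.64 for Tbr1, −9.43 for Fezf2 and −3.47 for Bcl11b, with adjusted p-values of 0.00558 to 0.0361 (edgeR). Neurod2 (0.43, adjusted p = 0.734) and Cux2 (−0.77, adjusted p = 0.0862) were not called. For IleR, Emx1 (−5.03) and Tbr1 (−6.97) were called, each with an adjusted p-value of 0.043 (edgeR), where 0.0979% of all genes were called. Leaving out 1 library at a time, 0 members were called for IleR in 23 of 37 fits, and for ValR 4 were called in 8 fits, 5 in 6 fits, 6 in 22 fits and 7 in 1 fit. The ValR calls lost were those of Neurod6 and Bcl11b, at adjusted p-values of up to 0.0848 and 0.0880 (edgeR). With the hindbrain score as a covariate, 0 members were called for IleR and for ValR. For LeuR, 0 members were called by edgeR, where 0.00445% of all genes were called. An unadjusted p-value under 0.05 (edgeR) was found for 5 members and for 2911 of all 22465 genes. Limma voom called 0 members in any of the 3 interactions, and DESeq2 called 6 for IleR, 0 for LeuR and 6 for ValR.

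Between factors, levels can be ordered per kilobase of exon. In Control-fed males the order was Neurod6 (26.0 CPM per kb), Tbr1 (25.6), Neurod2 (20.6), Lhx2 (13.3), Bcl11b (13.3), Cux2 (11.8), Fezf2 (8.86) and Emx1 (7.08). Of the neighbours in this order, Tbr1 exceeded Neurod2, Neurod2 exceeded Lhx2 and Cux2 exceeded Fezf2 in 4 of 4 libraries, and the other neighbours changed places between libraries. In Control-fed females the order was Neurod2 (24.1 CPM per kb), Neurod6 (24.0), Tbr1 (20.7), Bcl11b (13.5), Lhx2 (10.1), Cux2 (9.04), Fezf2 (8.45) and Emx1 (5.14), and no pair of neighbours kept its order in all 6 libraries. Emx1 was the lowest per length in both.

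**Figure D5:**
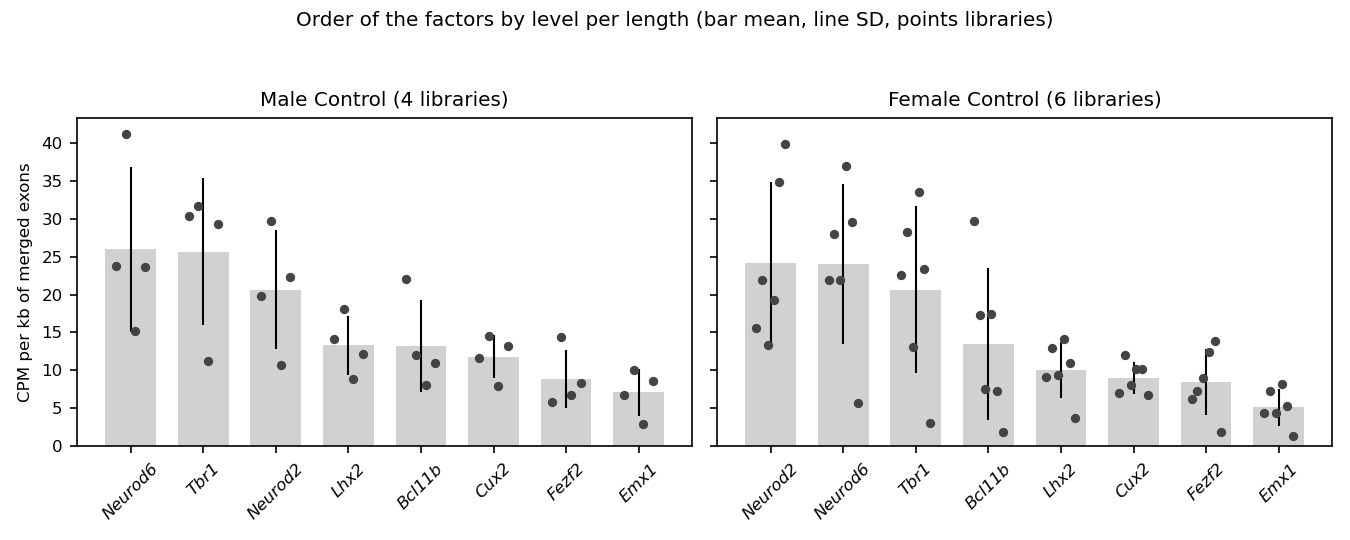
CPM per kilobase of merged exon (y axis) of each factor (x axis) in Control-fed males and females; bars are means, lines 1 SD and points libraries. The means fall from 26.0 for Neurod6 to 7.08 for Emx1 in males and from 24.1 for Neurod2 to 5.14 for Emx1 in females, with wide overlap between neighbours.

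Across the 23 female libraries, which cover the 4 diets and differ in depth and in cerebellar markers, pairs of members other than those with Neurod2 had Pearson correlations of 0.25 to 0.97 (21 pairs, median 0.80, log2 CPM). The closest pair was Tbr1 with Lhx2 (r = 0.97). Neurod2 correlated with the others between −0.55 (Bcl11b) and 0.24 (Neurod6). The gene most like the mean of the 8 members in females was 9130024F11Rik (r = 0.99, Spearman's rho 0.95, 23 libraries, of 13880 genes), and others among the 5 most alike were Rtn4rl2 (0.98), a Nogo receptor relative, Vip (0.98), an interneuron peptide, and Mpped1 (0.98). In males Egr3 (r = 0.98), Ptk2b (0.98) and Mmd (0.98) were among the 5 most alike over 14 libraries, where Control and restricted males did not overlap in 7 of the 8 members, and r within either set was not computed.

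Of 24 further factors of cortical projection neurons, 12 were lower and 4 higher for IleR in males, 9 lower and 1 higher for LeuR, and 13 lower and 6 higher for ValR. Over all genes, 6.63%, 3.81% and 11.1% were called higher. The median log2 fold changes of this list were −0.75, −0.84 and −0.95. Mef2c, a MADS box factor of excitatory neurons, fell from 523 CPM to 43.7, 56.2 and 36.2 CPM. Emx2 fell from 8.56 to 0.0773 CPM on ValR, and Bcl11a fell on LeuR by 2.04 on the log2 scale.

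Of the members of that list that rose, Eomes, Neurod1 and Pax6 are known outside the cortex too. The others that rose are not described here. Eomes, a T-box factor of cortical progenitors that also marks unipolar brush cells of the cerebellum and mitral and tufted cells of the olfactory bulb, rose from 0.0757 CPM in Control to 8.61 CPM on IleR, 4.53 CPM on LeuR and 7.21 CPM on ValR. Neurod1, a relative of Neurod2 that is also found in cerebellar granule cells, rose from 12.4 to 172 CPM on IleR and 244 CPM on ValR, and lay at 47.3 CPM on LeuR (adjusted p = 0.0976, edgeR). Pax6, which is found in the same granule cells, rose from 9.13 to 56.3 CPM on IleR and 70.6 CPM on ValR. The part of the cerebellar markers in these changes was not tested.

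Of 12 markers of cortical projection neurons that are not transcription factors, 7 were lower on IleR, 6 on LeuR and 9 on ValR among males, and none was higher, with median log2 fold changes of −2.61, −1.98 and −4.02. Their summed level ran from 3359 to 10768 CPM in Control-fed males, led by Camk2a, the kinase subunit of excitatory synapses, and from 635 to 2015 CPM in restricted males. Pan-neuronal markers, led by Snap25, had 1 of 6 genes higher and 1 lower on each diet, with summed levels of 3855 to 5339 CPM in Control-fed and 3264 to 4201 CPM in restricted males. The hippocampal list, led in CPM by Wfs1, had 1 of 6 genes lower and 2 higher for IleR and for ValR and 0 called for LeuR. The olfactory bulb list, led by Cdhr1, had 1 of 5 genes lower and 1 higher on each diet, and the thalamic list, led by Slc17a6, had 0 of 6 called for IleR and 1 higher for LeuR and for ValR. Of 6 oligodendrocyte genes, led by Mbp, 0 were called, of 6 astrocyte genes, led by Slc1a3, 2, 1 and 2 were higher, and of 6 microglial genes, led by Csf1r, 2, 0 and 4 were lower. In females, 0 genes of any of these lists were called on any diet, and Hoxc4 and Cd3d were at 0 counts in all 5 IleR libraries.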

How the data were processed

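The authors deposited 1 table of expected counts per gene for each sex, estimated by RSEM from reads of bulk brain RNA on GRCm38.p5. The submitters' processing notes name R 3.4.3, edgeR and limma, and the aligner is not given in the sources used here. The labels and the methods differ on RNA selection (polyA-enriched mRNA or total RNA), and the extraction label names liver where the tissue label and methods name brain. Between 3.69% and 4.93% of the deposited expected counts per library were not whole, and all were rounded.

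A gene was tested where some diet group had 1 count or more in each of its libraries. Within each sex, 4 diet groups were fitted in 1 model by edgeR 4.0.16 (R 4.3.3) with TMM factors and the quasi-likelihood test, and sex interactions in 1 model of 8 groups. P-values were adjusted by Benjamini-Hochberg over all genes at 0.05. Log2 CPM used a prior count of 2. Limma 3.58.1 (voom), DESeq2 1.42.0, other filters and scaling, a hindbrain score covariate and leaving out each library were alternatives, and the fits were tested on simulated data. Library numbers are not shared between groups, so nothing was paired. The lowest chi-square per degree of freedom among 73 pairs of libraries of a group was 8.43, so no library was counted as a repeat.

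All 8 members are named, with the 5 genes per sex whose log2 CPM correlated best with the members' mean (mean log2 CPM of at least 1), the gene of each marker list with the highest Control CPM, marker genes at 0 counts throughout a group, and the 3 largest called changes in each direction of the list of further cortical factors. Neurod1 on LeuR is given as a value. Some genes that this rule names are not reported here. Marker lists were those of cortex, striatum, hippocampus, olfactory bulb, thalamus, cerebellum, brainstem and spinal cord, neurons, oligodendrocytes, astrocytes, microglia and T cells. Members and lists were chosen with earlier results of these data known. Of 55416 identifiers, 52083 matched GENCODE genes. Promoter sequences are from RefSeq (27025 genes), with no protein sequence used here.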

Additional observations from a re-analysis of the deposited data

Results flagged for a closer look

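Among 48 sets of member values in groups of 4 to 10 libraries, 3 had 1 library far from the others by Dixon's criterion at 95%, where chance gives about 1 in 20, or 2.4 of 48. Tbr1 in Male Control 4 lay at 61.5 CPM, under the other 3 Control-fed males. Tbr1 in Female ValR 35 lay at 213 CPM, above the other 5 ValR-fed females. Fezf2 in Male ValR 10 lay at 0.118 CPM, which is 2 counts, beside 3 libraries at 0, and with 3 values at 0 any count in the fourth library meets the criterion.

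Male and female effects of a diet differed in the interaction test of edgeR for several members (log2 fold change in males minus that in females). For IleR the difference was −5.03 for Emx1 and −6.97 for Tbr1. For ValR it was −4.6 for Lhx2, −6.67 for Emx1, −3.32 for Neurod6, −7.64 for Tbr1, −9.43 for Fezf2 and −3.47 for Bcl11b. The cerebellar and brainstem markers of the male libraries also differed by diet, and their part in these differences was not tested apart from the fit with the hindbrain score.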

How the results depend on the processing

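In males, 7 members were called for IleR and for ValR under limma voom, DESeq2, RLE factors, no filter, filterByExpr or with just the 2 diets of the comparison fitted, and 5 and 7 at an adjusted p under 0.01. In females, 0 were called under every alternative run. With the hindbrain score as a covariate it was 0 in males for IleR, LeuR and ValR, 0 for ValR against LeuR, and 0 for the IleR and ValR interactions. At an adjusted p under 0.01 it was 2 for LeuR in males, 0 for ValR against LeuR and 0 for the IleR interaction. With only the 2 groups compared in the fit it was 0 for LeuR in males. For ValR against LeuR it was 0 by limma voom, 5 by DESeq2 and 4 without a filter. For the interactions it was 0 by limma voom for IleR and ValR, and 6 by DESeq2 for IleR. Leaving out 1 library gave 0 to 4 members for ValR against LeuR and 0 to 6 for the IleR interaction (0 in 23 of 37 fits, 6 without Male Control 4, 5 without Female IleR 41 or Female LeuR 45). The share of all genes called was computed for the main edgeR fits only, so the member counts of these alternatives have no background beside them. Causes were not tested.

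Directions that turned belong to values near 0 or not called. Neurod2 for IleR in males was 0.014 without a filter and 0.0012 with filterByExpr. With the score, Neurod2 was −2.86 for ValR in males, −0.14 for ValR against IleR and −0.72 for the ValR interaction, Neurod6 was −0.22 for ValR against IleR, Bcl11b was 0.13 for the LeuR interaction, and Fezf2 in females was −0.0027 for IleR and −0.033 for ValR. By limma voom, Neurod6 was 0.58 for ValR against LeuR and 0.30 for IleR against LeuR, Lhx2 was 0.34 for IleR against LeuR, and in females for ValR Neurod6 was 0.055 and Tbr1 0.00094. Without the 8 females of high Gabra6, Neurod2 was 0.020 for ValR.

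Leaving out 1 library also turned directions among males. Neurod2 for IleR ran from −0.43 to 0.23. Neurod6 ran from −0.95 to 1.31 for ValR against LeuR, from −0.11 to 0.51 for ValR against IleR and from −1.11 to 1.15 for IleR against LeuR. For ValR against IleR, Fezf2 ran from −6.71 to 0.40 and Cux2 from −0.039 to 0.065. The IleR interaction of Neurod2 ran from −0.44 to 0.18. In females for IleR, Lhx2 ran from −0.033 to 0.28, Neurod2 from −0.081 to 0.24, Tbr1 from −0.12 to 0.32, Fezf2 from −0.038 to 0.37 and Cux2 from −0.029 to 0.14. For LeuR, Neurod2 ran from −0.24 to 0.13 and Bcl11b from −0.68 to 0.027. For ValR, Lhx2 ran from −0.070 to 0.25, Emx1 from −0.45 to 0.047, Neurod2 from −0.30 to 0.052, Neurod6 from −0.25 to 0.12, Tbr1 from −0.49 to 0.053, Fezf2 from −0.18 to 0.23 and Bcl11b from −0.62 to 0.097. No paired analysis was possible because no library number is shared between groups. Depth limits Fezf2 and Emx1 in restricted males, where several libraries held 0 counts.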
